A study of Mus musculus with 4 samples.

Results

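Interferon-stimulated genes are the genes whose transcription rises when a cell senses interferon. A list of 42 of them was followed through the accessible chromatin of large peritoneal macrophages (LPMs), the resident macrophages of the peritoneal cavity. A region of open chromatin was counted for a member if its midpoint had a transcription start site (TSS) of that gene as the nearest one in RefSeq, or if it overlapped the gene body. This gave 137 of the 70744 regions obtained by merging the peaks of all 4 libraries, and 40 of the 42 genes had at least 1 region. The cells were sorted from C57BL/6 mice at 9 weeks of age, and accessibility was measured by ATAC-seq, where a transposase inserts sequencing adaptors into DNA that is not packed away. All mice carried floxed Rxra and Rxrb, which encode the retinoid X receptors RXRα and RXRβ. The control group, RXRabfl/fl, had libraries numbered replicate 1 and replicate 3, and the group in which Cre is driven by the lysozyme M gene, LysMCre+RXRabfl/fl, had replicates 1 and 2. Lysozyme M is transcribed in macrophages and other myeloid cells, so the deletion is not limited to LPMs, and the controls carry no Cre. Each library was made from 40000 cells, and all 4 carry the label library batch 1. The labels do not say whether the replicates came from separate mice, so p-values measure the spread between these libraries, which may be technical. The study left out samples that did not cluster with their group, which can narrow that spread. Values of the 4 libraries are given below in the order RXRabfl/fl replicates 1 and 3, then LysMCre+RXRabfl/fl replicates 1 and 2.

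Type I interferons bind a receptor of the subunits IFNAR1 and IFNAR2, whose kinases JAK1 and TYK2 phosphorylate STAT2. In a complex with IRF9 it binds the interferon-stimulated response element (ISRE), built of GAAA motifs 2 bases apart. Interferon-γ acts on a second element, the γ-activated site (GAS), an inverted repeat of TTC. The products of the genes sense viral RNA and DNA, degrade or edit it, block viral entry and assembly, attach the ubiquitin-like protein ISG15, guard vacuoles against intracellular pathogens, or process peptides for MHC class I. Macrophages transcribe many of them at a low level without infection.

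The letters of these sites were present in the open promoters of the list. Promoter regions are those with a midpoint no more than 1 kb before or 200 bp after a TSS, and 42 of the 137 member regions did so. The pattern GAAANNGAAA, read on both strands, occurred within 100 bp of the strongest summit in 21 of these 42 (50.0%), against 228 of the 12790 promoter regions of all genes (1.78%). In the RefSeq promoter table (GRCm38.p6, 250 bases before to 50 after a start), 33 of the 42 members were found with 40 windows, and 18 of these windows held the ISRE pattern (45.0%), against 3.46% of 31396 windows of all genes. No entry was found for Dhx58, Mx1, Mx2, Oas2, Usp18, Parp9, Parp14, Rtp4 and Zbp1. Sites of 10 genes are printed here because they cover the roles in the list and range from promoters open in all 4 libraries to Isg15, which had no peak. Each is 30 bases of mm10 (GRCm38), read 5′ to 3′ on the strand of the gene, with the ISRE in capitals and its position relative to the TSS.
Ifit1, first site, chr19:34640775-34640804, + strand, position −100: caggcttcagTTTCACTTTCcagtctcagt
Ifit1, second site, chr19:34640794-34640823, + strand, position −81: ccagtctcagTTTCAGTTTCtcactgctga
Ifit3, first site, chr19:34583363-34583392, + strand, position −152: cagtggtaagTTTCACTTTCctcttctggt
Ifit3, second site, chr19:34583397-34583426, + strand, position −118: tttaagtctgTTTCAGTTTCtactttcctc
Oas3, chr5:120777715-120777744, − strand, position −70: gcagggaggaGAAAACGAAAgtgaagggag
Rsad2, chr12:26456553-26456582, − strand, position −115: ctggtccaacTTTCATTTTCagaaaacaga
Isg15, chr4:156200871-156200900, − strand, position −67: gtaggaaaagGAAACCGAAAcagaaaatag
Ifih1, chr2:62646204-62646233, − strand, position 37: gaagagaatcGAAACAGAAAccgatctgtg
Trim30a, downstream start, chr7:104446104-104446133, − strand, position 7: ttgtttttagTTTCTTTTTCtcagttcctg
Trim30a, upstream start, chr7:104465210-104465239, − strand, position −31: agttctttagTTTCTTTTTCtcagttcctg
Gbp2, chr3:142620594-142620623, + strand, position −55: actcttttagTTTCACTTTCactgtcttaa
Gbp7, chr3:142530273-142530302, + strand, position −49: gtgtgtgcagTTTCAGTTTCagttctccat
Tap1, chr17:34187688-34187717, + strand, position 146: cgaggtcggcTTTCGGTTTCttcttcctct
The Ifit1 and Ifit3 promoters carry the same 10 bases at their first sites and again at their second sites. Among the 33 genes with a promoter window, 37 ISRE matches lay in a promoter window or in a region at the start, 29 of them inside a called region, and 13 of these were within 50 bp of its strongest summit. The 8 matches outside a called region belonged to Isg15, Gbp3, Gbp5 and Ifitm3, whose start sites had no peak over them.

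GAS and the other motifs were searched in the same windows. TTCNNNGAA occurred near the summit of 8 of 42 member promoter regions (19.0%), against 3.71% of all promoter regions. In the promoter of Igtp, a gene of the immunity-related GTPases, a GAS and an ISRE lie side by side, each in capitals in its own stretch.
Igtp, GAS, chr11:58199501-58199530, + strand, position −41: aactagccatTTCTAGGAActgaaactgaa
Igtp, ISRE, chr11:58199512-58199541, + strand, position −30: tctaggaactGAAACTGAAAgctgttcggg
The composite of an ETS and an IRF motif, GGAANNGAAA, which can overlap an ISRE, occurred in 7 of 42 (16.7%) against 1.63% of all promoter regions. The macrophage factor PU.1 was represented by GAGGAAGT, which was found in 0 of 42 member promoter regions and 3.55% of all, and in 10 of the 95 member regions outside promoters (10.5%) and 10.6% of all such regions. Elements of RXR dimers were also searched, the direct repeats DR1 (AGGTCANAGGTCA) and DR5 (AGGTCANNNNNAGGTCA), and neither occurred in the 137 member regions. These exact letters are also rare elsewhere, at 20 and 16 of the 70744 regions. Away from promoters, 8 of 95 member regions (8.42%) held an ISRE near the summit, against 3.27% of all. A match describes the sequence and is not a bound site.

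**Figure D1:**
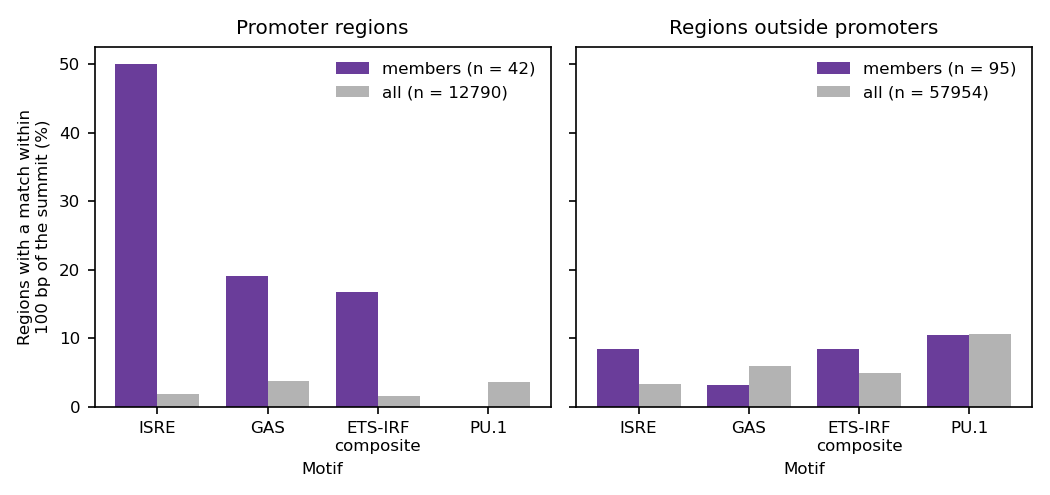
Bars give the share of regions (%) with a match of each motif within 100 bp of the strongest summit, for promoter regions on the left and regions outside promoters on the right, with members in purple and all regions in grey. The ISRE was found in 50.0% of the 42 member promoter regions and 1.78% of all 12790, and PU.1 in 0 of 42.

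The 4 libraries differed in how much was called. The peak lists held 38048, 16097, 65421 and 55581 peaks. At the regions called in all 4 libraries the median number of tags piled up at the summit was 97, 20, 99 and 65, so RXRabfl/fl replicate 3 stood apart at the low end. Of 9 LPM marker genes, 8 had a region, and the promoter of Gata6, the transcription factor that defines LPMs, was called in all 4 libraries with a fold enrichment of 11.3, 7.61, 5.80 and 8.61. Vsig4, on a sex chromosome that the authors removed, had no region. A promoter region was called for 6, 6, 7 and 7 of the 9 genes in the 4 libraries. Itgam had one in LysMCre+RXRabfl/fl alone, at 6.06 and 8.68, and Csf1r had regions but no promoter region. At the promoters called in all 4 libraries the log2 fold change ranged from −0.76 at Gata6 (adjusted p = 0.148 from limma) to 0.51 at Spi1 (adjusted p = 0.209). Of 49 regions of small peritoneal or monocyte-derived macrophage and dendritic cell markers, 20, 4, 43 and 34 were called. Of 70 regions of LPM markers, 49, 26, 58 and 59 were called. For scale, 52.0%, 21.9%, 90.7% and 77.2% of all regions were called in the 4 libraries. Of 10 regions of B cell markers, 3, 0, 9 and 6 were called, with no region at Cd79a. Of 15 regions of T and NK cell markers, 6, 1, 14 and 10 were called, with no region at Cd3g. Of 9 regions of granulocyte markers, 3, 2, 9 and 4 were called, with no region at Cpa3 and Mcpt4. Other markers of these lists had open promoters, with 11.7, no peak, 12.02 and 10.4 at the B cell gene Ebf1 and 14.0, no peak, 16.6 and 16.1 at the neutrophil gene S100a8. The part of these cells in the values of the members was not tested. At the floxed genes the promoter peaks, which do not check the deletion, had log2 fold changes of 0.15 at Rxra (adjusted p = 0.762 from limma) and −0.60 at Rxrb (adjusted p = 0.150).

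Of the 137 member regions, 86, 29, 124 and 109 were called in the 4 libraries. These are 62.8%, 21.2%, 90.5% and 79.6% of the members, against 52.02%, 21.9%, 90.7% and 77.2% of all regions. In all 4 libraries 29 of 137 were called (21.2%, against 21.5% of all regions). A further 48 (35.0%, against 25.5% of all) were called in every library except RXRabfl/fl replicate 3, and 24 (17.5%, against 22.8%) were called in both LysMCre+RXRabfl/fl libraries and in neither control. No member region was called only in both RXRabfl/fl libraries, a pattern that 0.0452% of all regions showed. Of the rest, 27 had a peak in 1 LysMCre+RXRabfl/fl library alone (19.7%, against 24.97% of all regions). A further 5 had one in RXRabfl/fl replicate 1 alone (3.65%, against 1.90% with a peak in 1 RXRabfl/fl library alone), and 4 in that library and 1 LysMCre+RXRabfl/fl library (2.92%, against 3.09%). These shares are descriptions, and no test of their differences was run. The 48 regions that RXRabfl/fl replicate 3 alone lacked were weaker elsewhere too. Their median pileup in RXRabfl/fl replicate 1 was 26 tags, against 71 at the regions called in all 4 libraries. With the same number of peaks taken from each library (16097, those of lowest q value), 48 member regions remained, with 35, 29, 31 and 34 called. Then 1 of 48 was called only in both LysMCre+RXRabfl/fl libraries (7.82% of all regions), at a Trim30a promoter, and 3 of 48 only in both RXRabfl/fl libraries (7.22% of all), near Trim25, Gbp5 with Gbp7, and Isg20.

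**Figure D2:**
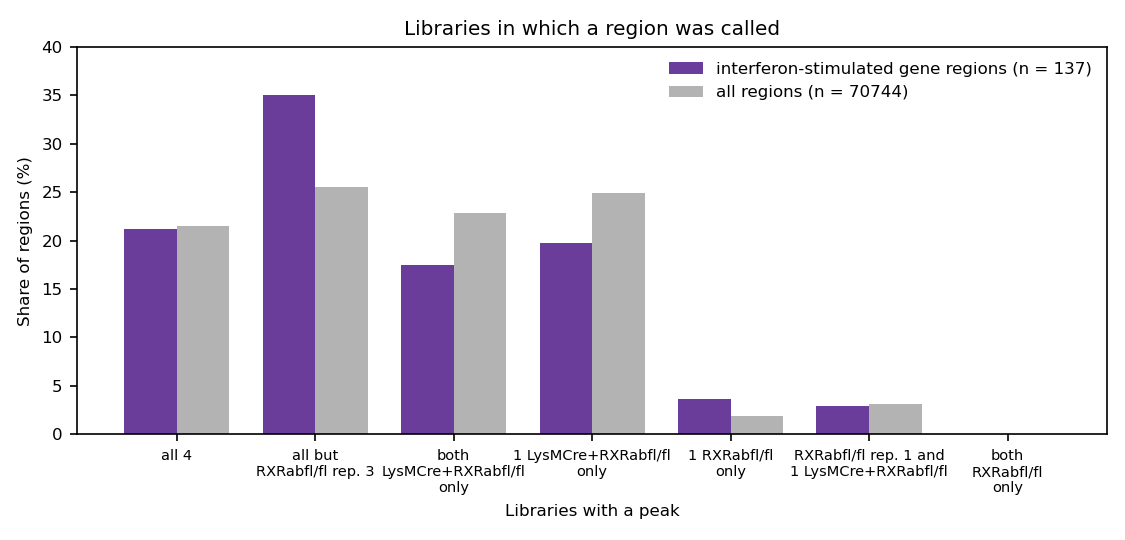
Bars give the share of regions (%) by the set of libraries that had a peak there, for the 137 regions of interferon-stimulated genes and for all 70744 regions. The class called in all libraries but RXRabfl/fl replicate 3 held 35.0% of member regions and 25.5% of all, and the class called only in both LysMCre+RXRabfl/fl libraries 17.5% and 22.8%.

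**Figure D3:**
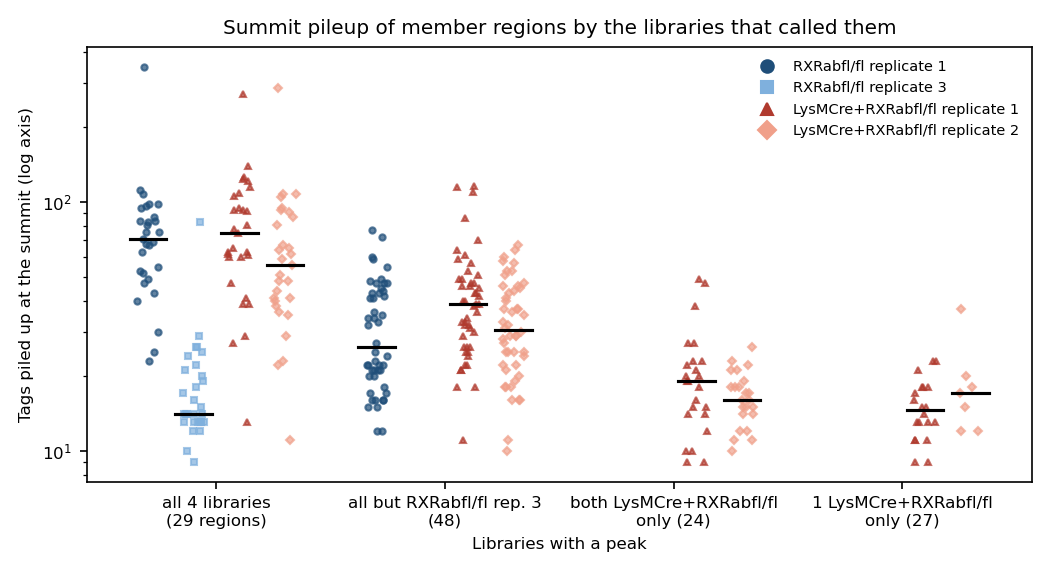
Points are member regions, with the number of tags at the summit on a log axis, grouped by the libraries that called them, and black lines are medians. Regions called in all 4 libraries had medians of 71, 14, 75 and 56 tags, and those called only in both LysMCre+RXRabfl/fl libraries medians of 19 and 16.

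Promoters set the members apart from one another. A promoter region was called for 33 members, for 17 of them in all 4 libraries and for a further 12 in all but RXRabfl/fl replicate 3. As regions, 18 of 42 member promoters (42.9%) were called in all 4 libraries, against 55.8% of all promoter regions, and again 18 of 42 (42.9%) in all but RXRabfl/fl replicate 3, against 23.2%. The values that follow are fold enrichments, the ratio of tags at the summit to the local background. They are given for the promoter region of each member with the highest mean log2 value over the libraries that called it.

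The sensors of viral nucleic acid had 4 members and 18 regions. Ifih1, which encodes the double-stranded RNA sensor MDA5, had an open promoter in all 4 libraries (chr2:62645860-62646401), with fold enrichments of 14.3, 7.08, 13.6 and 14.4. The other sensor promoters were weaker or less often called. Dhx58, encoding the regulatory RNA helicase LGP2, had 8.10, 5.76, 12.4 and 8.74, and Zbp1, encoding a sensor of Z-form nucleic acid, had 8.05, no peak, 10.8 and 10.4. Ddx58, encoding the RNA sensor RIG-I, had a promoter peak in LysMCre+RXRabfl/fl replicate 1 alone, at 5.98. Its strongest region lay at −4.48 kb from the start, with 14.2, no peak, 17.3 and 12.4. Of the 18 sensor regions, 8 were called only in both LysMCre+RXRabfl/fl libraries, a pattern seen in 24 of the 137 member regions and 22.8% of all regions, with 4 at Ifih1, 2 at Zbp1 and 1 each at Ddx58 and Dhx58. The Ifih1 regions were weak, between 4.26 and 7.94. The region 37.4 kb downstream of the Ddx58 start had 11.0 and 6.90, and the Zbp1 regions 8.22 and 8.88 at −10.9 kb and 9.46 and 6.77 at 32.3 kb.

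The IFIT proteins bind viral RNA, and their genes form a cluster on chromosome 19. None of the 9 gene-region pairs of Ifit1, Ifit2 and Ifit3, of which 1 region is shared by Ifit2 and Ifit3, had a peak in RXRabfl/fl replicate 3. That library had a peak in only 21.9% of all regions. The Ifit1 promoter (chr19:34640619-34641094), which spans both sites printed above, had fold enrichments of 7.95, no peak, 10.7 and 10.5. The Ifit2 promoter had 7.10, no peak, 12.2 and 13.2. The Ifit3 promoter (chr19:34583127-34583620) was called in LysMCre+RXRabfl/fl alone, with 9.03 and 6.25 and pileups of 20 and 12 tags. All 3 regions of Ifit3 were called in LysMCre+RXRabfl/fl alone, a pattern that 22.8% of all regions showed. For scale, the lowest pileup at which a member region was called in RXRabfl/fl replicate 1 was 12 tags.

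The OAS proteins make 2′-5′ oligoadenylates that switch on RNase L. Oas2 had a single region, its promoter (chr5:120749475-120750176), with fold enrichments of 11.3, 6.42, 20.7 and 19.7. Both LysMCre+RXRabfl/fl libraries lay above both controls, and the pileups, at 52, 13, 121 and 108 tags, had the same order. For scale, RXRabfl/fl replicate 3 was the lowest in 85.0% of all regions called in all 4 libraries. Both LysMCre+RXRabfl/fl libraries exceeded RXRabfl/fl replicate 1 in 44.3% of all regions called in those libraries. In the ranking of each library's own peaks it stood at the 66.59th and 38.04th percentile in RXRabfl/fl and at the 94.99th and 97.97th in LysMCre+RXRabfl/fl, although those lists also hold more weak peaks. Its neighbour Oas3 had 8.90, no peak, 10.9 and 9.63. The OAS-like genes were weaker. Oasl1 had 3.79, no peak, 4.61 and 5.32, and Oasl2 had no promoter region by midpoint but a region 0.61 kb into the gene, with 4.38, no peak, 9.31 and 9.80.

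Xaf1, which encodes an antagonist of the apoptosis inhibitor XIAP, also had its promoter as its single region (chr11:72301314-72301933). Its fold enrichments were 14.1, 6.14, 24.6 and 18.9, again with both LysMCre+RXRabfl/fl libraries above both controls. Bst2, encoding tetherin, which holds budding virions at the cell surface, had 15.9, 10.2, 17.9 and 15.4, where the groups overlapped. Eif2ak2, encoding the double-stranded RNA-activated kinase PKR, had 11.4, no peak, 18.1 and 16.2 at the promoter. Adar, encoding an RNA-editing deaminase, had 12.8, 9.93, 12.9 and 12.6, almost level outside RXRabfl/fl replicate 3. The GTPase genes Mx1 and Mx2 had 10.9, no peak, 12.6 and 14.0, and 11.96, 7.14, 13.4 and 11.9. Rtp4, encoding a receptor transporter, had 9.88, no peak, 11.8 and 12.2. In Rsad2, encoding viperin, and Isg20, encoding an exonuclease, the highest value was in RXRabfl/fl replicate 1, with 7.87, no peak, 6.76 and 7.06 for Rsad2 and 12.2, 5.36, 10.2 and 6.78 for Isg20. Samd9l, whose product restricts viral translation, had its promoter called in RXRabfl/fl replicate 1 at 6.06 and in LysMCre+RXRabfl/fl replicate 2 at 4.81. Cmpk2, a mitochondrial nucleotide kinase gene next to Rsad2, had its strongest region 0.20 kb downstream of the start, in a coding exon, with 17.8, 6.98, 16.1 and 11.3. Ifitm3, whose product blocks viral entry, had no region over its start, and one of its 4 regions, 19.97 kb downstream of it, was called in LysMCre+RXRabfl/fl alone with 18.4 and 6.58. Ifi44 had no region in any library.

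**Figure D4:**
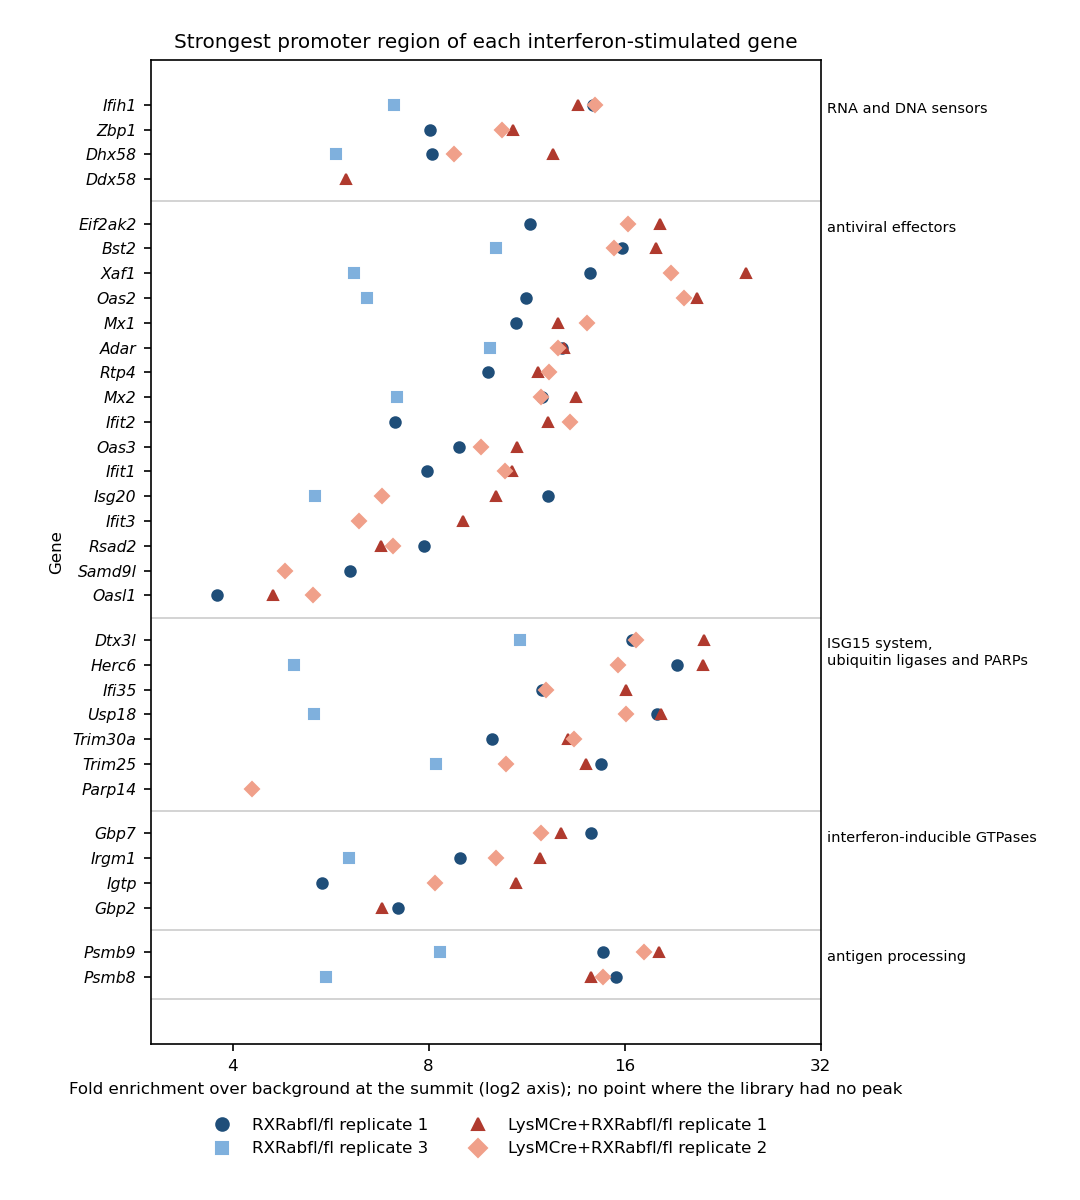
Points give the fold enrichment at the summit (log2 axis) of the strongest promoter region of each of the 33 members with one, by library and ordered by role and mean, and a missing point means that the library had no peak. RXRabfl/fl replicate 3 is the leftmost point of every row that has it, and both LysMCre+RXRabfl/fl libraries lie to the right of both controls at Oas2, Xaf1, Dhx58, Irgm1, Dtx3l and Psmb9. The Irgm1 row is its region at −0.94 kb, and the region over its start went the other way. Of all regions called in all 4 libraries, 85.0% had RXRabfl/fl replicate 3 as the lowest. Both LysMCre+RXRabfl/fl libraries exceeded RXRabfl/fl replicate 1 in 44.3% of all regions called in those libraries.

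Genes of the ISG15 system, ubiquitin ligases and PARPs had 9 members and 33 regions. Isg15 itself had no region in any library, although its promoter window holds overlapping ISRE matches, 1 of which is printed above. Usp18, which encodes the protease that removes ISG15 and also blocks IFNAR2, had 17.9, 5.34, 18.2 and 16.1 at its promoter. Herc6, the mouse ISG15 ligase, had 19.3, 4.96, 21.1 and 15.6. In both, RXRabfl/fl replicate 1 lay among the LysMCre+RXRabfl/fl values. Trim25, an E3 ligase that acts on RIG-I, had 14.7, 8.21, 13.9 and 10.5 at its promoter and its strongest region 25.1 kb downstream, with 17.0, 15.2, 17.3 and 14.9 and a pileup of 350, 83, 271 and 288 tags, the deepest of all member regions in each library. Ifi35, which encodes an interferon-induced leucine zipper protein, had 11.95, no peak, 16.1 and 12.1. Dtx3l and Parp9 encode a ligase and its ADP-ribosylating partner and share the region upstream of Dtx3l (chr16:35939624-35940118), with 16.4, 11.1, 21.2 and 16.7. Parp14, an ADP-ribosyltransferase gene, was called at the start in LysMCre+RXRabfl/fl replicate 2 alone, at 4.29. The member region of highest mean outside promoters lay at −16.9 kb from its start, with 21.9, no peak, 21.0 and 18.6, and an intron region 27.2 kb into the gene was called in LysMCre+RXRabfl/fl alone, with 17.3 and 7.96. Trim30a, encoding a tripartite-motif protein, has a pair of starts. The downstream one had 10.0, no peak, 13.1 and 13.4, and the upstream one 14.8, 6.58, 16.02 and 13.4.

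The interferon-inducible GTPases include the guanylate-binding proteins, which coat pathogen vacuoles, and the immunity-related GTPases Irgm1 and Igtp. Gbp2 was called in all 4 libraries at its start (chr3:142620480-142620917), with fold enrichments of 7.83, 6.19, 4.46 and 7.10, which overlapped between genotypes. A second Gbp2 promoter region, at −0.86 kb, was called in RXRabfl/fl replicate 1 at 7.19 and in LysMCre+RXRabfl/fl replicate 1 at 6.77. Gbp7 had 14.2, no peak, 12.8 and 11.9, and a region shared with Gbp5, which holds an ISRE, had 16.6, 7.14, 15.9 and 13.04. Igtp had 5.48, no peak, 10.9 and 8.18, and Irgm1 8.93, 6.03, 11.9 and 10.1 in a region at −0.94 kb. The Irgm1 region over the start, at −0.09 kb, went the other way, with 6.51, no peak, 4.72 and 4.55. With RXRabfl/fl replicate 3 left out, the log2 fold change was −0.72 at the start and 0.07 at −0.94 kb. Gbp3 and Gbp5 had no promoter region, with 4 and 7 regions elsewhere. In antigen processing, the peptide transporter gene Tap1 and the immunoproteasome gene Psmb9 share 1 region (chr17:34187254-34188270), with 14.8, 8.33, 18.1 and 17.1, and Psmb8, a second immunoproteasome gene, had 15.5, 5.56, 14.2 and 14.8. None of the 6 regions of this group was called only in both LysMCre+RXRabfl/fl libraries (22.8% of all regions were), and 1, at 16.4 kb from the Psmb9 start, had a peak in LysMCre+RXRabfl/fl replicate 2 alone, at 6.01.

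The levels were then compared between genotypes over the 15199 regions called in all 4 libraries, with log2 fold enrichment centred on the median of each library and tested with limma. With 2 libraries against 2, the smallest two-sided p of an exact permutation test would be 0.333. A region was called if it moved by more than 1 on the log2 scale with p under 0.05 after Benjamini-Hochberg adjustment. None of the 29 member regions was called higher in LysMCre+RXRabfl/fl (0.0395% of all regions) and none lower (0.0461% of all). At an unadjusted p under 0.05, 4 of 29 members and 22.0% of all regions stood. The median log2 fold change was 0.08 over the members, with 17 of 29 above 0, and −0.09 over all regions. Over the 18 promoter regions of members it was 0.16, with 13 of 18 above 0, and −0.18 over the 7137 promoter regions of all genes, of which 30.5% were above 0. These signs rested largely on RXRabfl/fl replicate 3. With it left out, only those at Oas2, Xaf1, Dhx58, the Irgm1 region at −0.94 kb and the region shared by Tap1 and Psmb9 stayed above 0. Over the 77 member regions of that fit the median was −0.02, with 34 above 0, against −0.13 over all regions. The 11 member regions outside promoters had a median of −0.09, against 0.00 for all such regions. Both LysMCre+RXRabfl/fl libraries lay above both RXRabfl/fl libraries in 7 of 29 members (24.1%, against 22.3% of all regions), and below both in 4 of 29 (13.8%, against 32.9%). Without centring, the median of all regions shifts to 0.28 and that of the members to 0.45.

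The largest positive values were at the Oas2 and Xaf1 promoters described above. Oas2 had a log2 fold change of 0.88 (SE 0.21, adjusted p = 0.067 from limma) and Xaf1 of 0.84 (SE 0.21, adjusted p = 0.073). These are 2 of the 29 regions, and neither passed. Herc6 followed with 0.52 (SE 0.28), Usp18 with 0.44 (SE 0.26) and the Eif2ak2 region at −8.62 kb with 0.43 (SE 0.21), with adjusted p from 0.250 to 0.329. The sign of the last 3 turned when RXRabfl/fl replicate 3 was left out, to −0.32, −0.29 and −0.01, and in that fit Oas2 had 0.61 and Xaf1 0.38. The largest negative values were at the Gbp2 start, −0.68 (SE 0.31, adjusted p = 0.220), and at 2 regions downstream of Trim25, −0.66 (SE 0.27, adjusted p = 0.179) and −0.37 (SE 0.26, adjusted p = 0.407). The 2 Isg20 promoter regions came next at −0.33 and −0.32, with adjusted p of 0.379 and 0.614. The Gbp2 value rested mainly on LysMCre+RXRabfl/fl replicate 1, without which it was −0.17.

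**Figure D5:**
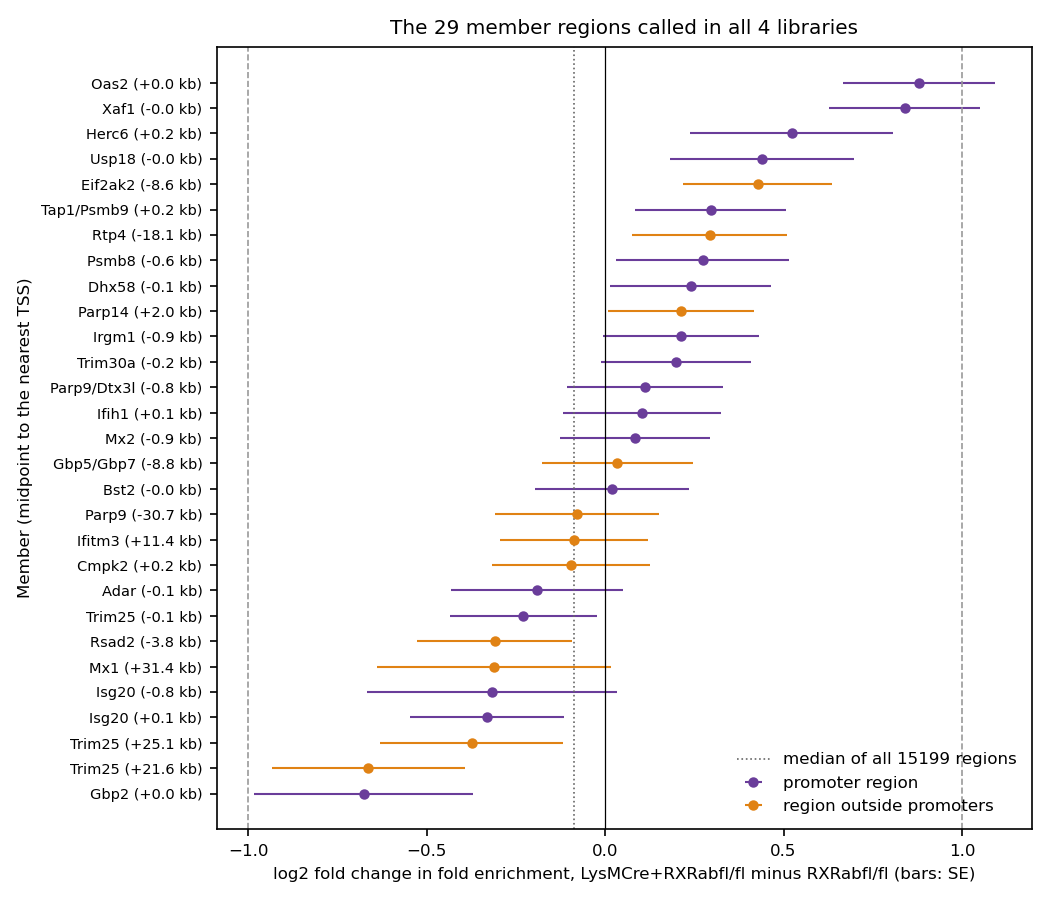
Points give the log2 fold change in fold enrichment (LysMCre+RXRabfl/fl minus RXRabfl/fl, centred on each library's median) of the 29 member regions called in all 4 libraries, with bars for the SE, in purple for promoters and orange for other regions. Dashed lines mark a change of 1 on the log2 scale, which no member reached, and the dotted line the median of all regions, −0.09.

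On the pileup at the summit in place of the fold enrichment, 1 of 29 member regions passed, the Oas2 promoter, with a log2 fold change of 1.26 (SE 0.25, adjusted p = 0.024 from limma). Of all regions, 2.41% were called higher and 5.08% lower on that measure, and no member was lower. Regions lacking only RXRabfl/fl replicate 3 could be compared with that library left out, or in a fit over regions called in at least 3 libraries. Without RXRabfl/fl replicate 3, 1 of 77 member regions was called higher (2.28% of all) and none lower (1.28% of all). It lay at −26.1 kb from the Adar start (chr3:89688703-89689174), with 4.38 in RXRabfl/fl replicate 1 and 16.4 and 9.14 in LysMCre+RXRabfl/fl, a log2 fold change of 1.26 (SE 0.27, adjusted p = 0.037 from limma). In that fit the control arm is 1 library, assumed to vary like the LysMCre+RXRabfl/fl libraries, whose spread alone sets the p. In the fit over at least 3 libraries, 7 of 77 (9.09%) were called higher, against 8.14% of all regions, and none lower, against 0.371%. Besides the Adar region these were near Psmb9, Ifit1, Gbp3, Gbp5, Oasl2 and Herc6, all without a peak in RXRabfl/fl replicate 3, so the control value is that of 1 library. Of these 7, the Psmb9 region 6.56 kb downstream of its start had 6.06, no peak, 16.5 and 11.5, and the Ifit1 region 21.4 kb downstream had 5.88, no peak, 14.7 and 9.33. As deposited and without centring, both LysMCre+RXRabfl/fl libraries exceeded RXRabfl/fl replicate 1 in 36 of these 77 regions (46.8%, against 44.3% of all such regions), and both lay below it in 17 (22.1%, against 27.1%).

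Levels were also set beside the presence of an ISRE within 100 bp of the strongest summit. The 21 promoter regions with an ISRE near the summit had median fold enrichments of 9.88, 6.50, 11.8 and 11.2 where called, and the 21 without had 10.9, 6.01, 12.3 and 9.70. Those without it there are not all free of the motif. An ISRE lay further from the summit in the promoter regions of Ifit3, Oasl1, Dhx58, Herc6 and Bst2. The same held for the Isg20 region at 0.08 kb and the Irgm1 region over the start. All 4 libraries called 8 of the 21 with the motif near the summit and 10 of the 21 without it there. The median log2 fold change was 0.21 over the 8 and 0.07 over the 10, with 7 of 8 and 6 of 10 above 0, against 30.5% of all promoter regions. With RXRabfl/fl replicate 3 left out, fewer were above 0. Among the 8 these were Oas2, the Irgm1 region at −0.94 kb and the region shared by Tap1 and Psmb9, and among the 10 Xaf1 and Dhx58. The pair of Trim30a starts carry the same ISRE letters, and the upstream one was called in all 4 libraries and the downstream one in 3.

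Genes that make, sense and transmit interferon were described from a list of receptors, kinases, transcription factors, adaptors, inhibitors and interferon genes. Of 6 receptor genes, 5 had a promoter region in at least 1 library, and Ifnar1, encoding a subunit of the type I receptor, had 24.6, 17.3, 21.0 and 19.1. The partner gene Ifnar2 had 9.66, 6.54, 14.4 and 11.65, with a log2 fold change of 0.34 (adjusted p = 0.376 from limma). All 3 kinase genes were open at the promoter in all 4 libraries, with Tyk2 at 19.96, 11.5, 21.4 and 19.5. The transcription factor gene Stat2 had 24.8, 11.9, 26.8 and 21.3, and Irf9 had 13.7, 7.01, 18.2 and 11.3, and the genotypes overlapped in both. Irf7, which amplifies interferon transcription, was weak at 7.16, no peak, 5.85 and 4.99. No interferon gene had a promoter region in any library. Across the 6 lists, none of the 55 regions in the comparison, with 11 receptor, 6 kinase, 13 transcription factor, 9 adaptor, 14 inhibitor and 2 interferon gene regions (Usp18 stands among both inhibitors and members), passed the threshold in either direction on fold enrichment. On the pileup 1 region was higher, at −14.7 kb from Ikbke, which encodes a kinase of interferon induction, with 63, 10, 142 and 94 tags (log2 1.33, adjusted p = 0.020 from limma). It was picked by the test after its values were seen.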

How the data were processed

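ATAC-seq peak lists of 4 libraries were used. Per the labels and methods, the authors trimmed adaptors with cutadapt 1.7, aligned to mm10 with Bowtie2 4.1.2, discarded duplicates along with mitochondrial, X and Y reads, and ran MACS2 2.1.1 on each library (extension 200 bp, q value 0.05), leaving out blacklisted regions. The deposited lists give the fold enrichment at the summit (a ratio), −log10 of the p-value and q-value, a score, not used here, and the summit offset. The authors tested read counts with edgeR 3.20.9 through DiffBind 2.6.6. Those counts are not analysed here.

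Peaks sharing 1 bp were merged and placed on 45756 RefSeq NM and NR transcripts of the same build. Log2 fold enrichment, with no pseudocount added, was tested with limma 3.58.1 in R 4.3.3 over regions called in all 4 libraries. Summit pileups were solved from fold enrichment and p-value to within 0.01 in −log10 p (MACS2 pseudocount 1), for 98.0 to 100.0% of a library's peaks. On simulated data with 15199 regions, limma called 200 of 200 regions changed by 2 on the log2 scale and 1 unchanged region. The changes in the data ranged from −1.78 to 1.48, and the power at changes of that size was not tested. Python 3.11.15, numpy 2.4.6, pandas 2.3.3 and pysam 0.24.0 were used. The depth in reads is not given in the lists, so the pileup stands for it.

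The members and lists were chosen with earlier results of these data known. Named were the strongest promoter region of each member, the 5 regions with the largest change in each direction, regions past the threshold, at most 8 of highest mean called in 1 genotype only, and the 5 of highest mean outside promoters. Others were added after their values were seen. Results for some listed genes that are no members are not reported here. The alternatives are given in the closing section.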

Additional observations from a re-analysis of the deposited data

How the results depend on the processing

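With equal numbers of peaks per library, member regions called only in both LysMCre+RXRabfl/fl libraries numbered 1 in place of 24, those only in both RXRabfl/fl libraries 3 in place of 0, and the median log2 fold change was 0.17 in place of 0.08. It was 0.45 without centring and 0.29 over regions called in at least 3 libraries. Member regions called higher numbered 1 on the pileup and 7 over regions called in at least 3 libraries, in place of 0. With 1 library left out, the count only in LysMCre+RXRabfl/fl ranged from 24 to 72 (72 without RXRabfl/fl replicate 1 and 44 without LysMCre+RXRabfl/fl replicate 2), that only in RXRabfl/fl from 0 to 5 (5 without RXRabfl/fl replicate 3), members with a promoter region in all libraries from 17 to 29, the median from −0.022 (without RXRabfl/fl replicate 3) to 0.16, and regions called higher or lower each from 0 to 1. Without RXRabfl/fl replicate 1 these were the Herc6 promoter at 1.03 and the region 21.6 kb downstream of Trim25 at −1.11. Signs turned at both Isg20 regions without centring (0.037 and 0.052), at the upstream one without LysMCre+RXRabfl/fl replicate 1 (range −0.83 to 0.20 with 1 library left out), and without RXRabfl/fl replicate 3 at Eif2ak2 (−0.0070 to 0.53), Usp18 (−0.29 to 0.84) and Herc6 (−0.32 to 1.03). The cause was not tested. Of 100 values of the 10 regions with the largest changes, 91 kept sign and side of the threshold. The number of members with an ISRE in a promoter region, 20, ranged from 16 to 26 over other windows. A q value of 0.01, summits, 100 bp of overlap and the nearest TSS alone kept every count within 1.5 times.

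No paired analysis was possible because the genotypes share only replicate number 1. A region without a call is one below the detection of that library, which was lowest in RXRabfl/fl replicate 3, so absence of a peak is not absence of open chromatin.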

Other observations

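Neighbours and relatives of the members outside the list were looked at after the values above had been seen. On chromosome 5 beside Oas2 and Oas3, a promoter region shared by Oas1b and Oas1c had fold enrichments of 15.98, no peak, 20.9 and 22.2 in the 4 libraries. Both LysMCre+RXRabfl/fl values lay above that of RXRabfl/fl replicate 1, as in 44.3% of all regions called in those libraries. Oas1a had 9.77, no peak, 14.8 and 7.47. Oas1g was called in LysMCre+RXRabfl/fl replicate 1 alone at 6.94. Of the guanylate-binding protein genes on chromosome 5, Gbp4 and Gbp8 had no promoter region, Gbp6 was called in RXRabfl/fl replicate 1 at 3.37 and in LysMCre+RXRabfl/fl replicate 2 at 6.25, and Gbp9 had 6.38, no peak, 8.45 and 5.71. The immunity-related GTPase genes Irgm2 and Ifi47 were called in all 4 libraries at 16.1, 5.31, 12.4 and 11.5 and at 13.3, 6.31, 12.7 and 11.1, with log2 fold changes of 0.00 and 0.01 (SE 0.24 and 0.21). B2m, which encodes the light chain of MHC class I, had 14.3, 8.42, 13.7 and 10.2.

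The interferon-induced transmembrane protein genes near Ifitm3 differed from it. Ifitm2 and Ifitm6 were called in all 4 libraries at the promoter, with 9.05, 5.59, 7.53 and 8.29 for Ifitm2 and 13.4, 6.21, 8.63 and 8.85 for Ifitm6, whereas Ifitm1 and Ifitm3 had no promoter region in any library. The log2 fold changes of Ifitm2 and Ifitm6 were −0.22 (SE 0.23) and −0.43 (SE 0.22), and neither passed the threshold in limma (adjusted p = 0.598 and 0.271).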
